A study of Mus musculus with 3 samples.

Results

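*Pax7*, *Myf5*, *Myod1*, *Myog*, *Cdh15*, *Calcr*, *Chodl*, *Spry1*, *Des*, and *Megf10*, regulators and markers of muscle stem cells (MuSCs, also called satellite cells), were chosen by name and followed in single-cell RNA sequencing (scRNA-Seq) of mouse diaphragm. They are 10 of the 32285 genes in the count tables. MuSCs were taken as cells with at least 2 unique molecular identifiers (UMIs, each standing for 1 captured transcript) of *Pax7*, *Myf5*, and *Cdh15* together and none of the leukocyte gene *Ptprc* or the fibroblast gene *Pdgfra*. This rule found 997 MuSCs among 12275 cells. Because *Pax7*, *Myf5*, and *Cdh15* selected the cells, their levels in MuSCs are given as a description, and the 7 other genes carry the comparisons.

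The study followed diet-induced obesity and thrombospondin 1 (*Thbs1*) in diaphragm remodeling. WT mice were male C57Bl/6J, and KO mice were male B6.129S2-Thbs1tm1Hyn/J, a whole-body *Thbs1* deletion. All mice ate chow until 2 months of age. For 6 months after that they stayed on this chow as the control diet (CD) or ate a high-fat diet (HFD, 45% of calories from lipid). The 3 libraries, always given in the order WT CD, WT HFD, KO HFD, each came from the costal diaphragms of 2 mice pooled before sequencing. Each group thus had 1 library and no replicate. The libraries held 4132, 3774, and 4369 cells with 34312860, 31967976, and 36478779 UMIs, and the median cell had 7632.5, 8041.5, and 7554 UMIs. Of all cell barcodes, 16 occurred in more than 1 library, none of them a MuSC in more than 1. Levels are counts per 1000000 UMIs (CPM), summed over a class of cells. Intervals are exact 95% intervals (Poisson for CPM, Clopper-Pearson for shares, conditional for ratios), and they cover counting error only, not the spread between mice. With 1 library per group no test was possible, and a difference was counted by size alone, where a gene reached 50 CPM in either library and differed by 1.5-fold or more.

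As background, satellite cells lie between the muscle fiber and its basal lamina and stay quiescent until injury or growth activates them. Quiescent cells carry the transcription factors PAX7 and, mostly, MYF5. MYOD1 then marks the activated myoblast, and MYOG marks commitment to fusion and terminal differentiation. MYF5, MYOD1, and MYOG belong to one basic helix-loop-helix (bHLH) family and bind the E-box, CANNTG, with E-protein partners. MEF2 factors act beside them.

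The starts of *Myog*, *Chodl*, *Des*, and *Pax7* are shown because these genes carry the contrasts below: a late regulator found in few cells, a surface gene counted in most MuSCs, a structural gene shared with other cell types, and the gene that defines the MuSC. Each line holds 300 bases, 250 before the transcription start and 50 from it, 5′ to 3′ on the gene's strand, from RefSeq on GRCm38.p6. Capitals mark E-boxes (CANNTG) and MEF2 boxes (CTA and TAG with any 4 bases between them), searched on both strands.
Myog, chr1:134289754-134290053, plus strand: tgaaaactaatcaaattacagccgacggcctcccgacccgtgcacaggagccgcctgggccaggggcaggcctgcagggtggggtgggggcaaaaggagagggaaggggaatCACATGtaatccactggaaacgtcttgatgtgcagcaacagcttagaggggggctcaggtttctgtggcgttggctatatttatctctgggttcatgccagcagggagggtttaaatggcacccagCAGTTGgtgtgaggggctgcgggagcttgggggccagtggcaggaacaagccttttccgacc
Chodl, chr16:78930698-78930997, plus strand: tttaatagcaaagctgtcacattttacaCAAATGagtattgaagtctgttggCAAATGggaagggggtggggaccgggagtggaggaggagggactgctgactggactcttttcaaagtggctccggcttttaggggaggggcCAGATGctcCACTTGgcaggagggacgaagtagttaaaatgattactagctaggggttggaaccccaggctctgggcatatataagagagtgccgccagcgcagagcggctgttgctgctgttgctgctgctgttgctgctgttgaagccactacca
Des, chr1:75360042-75360341, plus strand: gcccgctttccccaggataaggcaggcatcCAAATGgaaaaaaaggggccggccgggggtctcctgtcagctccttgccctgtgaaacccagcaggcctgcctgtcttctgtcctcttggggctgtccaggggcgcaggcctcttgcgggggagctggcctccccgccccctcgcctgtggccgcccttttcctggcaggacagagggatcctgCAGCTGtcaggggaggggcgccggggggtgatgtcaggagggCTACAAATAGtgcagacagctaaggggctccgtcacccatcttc
Pax7, chr4:139832919-139833218, minus strand: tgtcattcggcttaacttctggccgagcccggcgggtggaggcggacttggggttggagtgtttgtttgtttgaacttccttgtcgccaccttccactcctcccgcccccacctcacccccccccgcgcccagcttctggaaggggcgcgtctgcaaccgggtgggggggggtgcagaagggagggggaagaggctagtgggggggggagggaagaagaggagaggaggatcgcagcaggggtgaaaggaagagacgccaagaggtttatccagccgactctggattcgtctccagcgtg
With positions counted from 0 at the first transcribed base, *Myog* had E-boxes at -138 and -12. *Chodl* had 4, at -222, -198, -107, and -98. *Des* had 2 E-boxes, at -220 and -36, and 1 MEF2 box at 6. *Pax7* had neither motif in this window, which lies around a RefSeq start 560 bases inside the GENCODE start of the gene, so the bases before the GENCODE start were not searched. For *Myog*, *Chodl*, and *Des* the RefSeq and GENCODE starts were 15, 0, and 37 bases apart. E-boxes of this loose form occurred in 72.3% of 32851 promoters of this length and MEF2 boxes in 3.69%, so a match is a description of the letters, not a binding site. Sequences that depart from the MEF2 form given above were not searched. A line without a marked MEF2 box, as for *Myog*, therefore does not show that such a site is absent. Entries were used for 8 of the 10 genes.

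*Thbs1* transcripts were counted in every library. Over all cells there were 4665 UMIs (136 CPM) in WT CD, 6459 (202 CPM) in WT HFD, and 5961 (163 CPM) in KO HFD. Over MuSCs there were 31, 27, and 141 UMIs, or 19.99, 16.2, and 46.7 CPM. *Thbs1* lies at chr2:118111876-118127133 on the plus strand (GRCm38). These are tags from the 3′ end of the transcript, and where they lie relative to the deleted part of the gene is not given in the sources used here, so they check no label.

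MuSCs made up 7.28% (6.51 to 8.12) of WT CD cells, 6.89% (6.102 to 7.74) of WT HFD cells, and 9.98% (9.11 to 10.9) of KO HFD cells, or 301, 260, and 436 cells. The KO HFD share lay above both others and the WT shares had overlapping intervals. A cluster of MuSC-like cells, made without the 10 genes, held 10.1%, 7.76%, and 11.2% of cells, with WT CD nearer to KO HFD. Of the 997 MuSCs, 921 fell in that MuSC-like cluster of 1197 cells. It was named from 7 markers outside the 10 genes, and its 10 leading genes were *Gal*, *Edn3*, *Calcr*, *Cdh15*, *Nppc*, *Pax7*, *Chodl*, *Asb5*, *Fgfr4*, and *Myf5*, of which *Asb5* and *Fgfr4* are among those markers and *Pax7*, *Myf5*, and *Cdh15* are genes of the rule. A further 28 lay in a Cycling-like cluster (2, 13, and 13 cells by library) and 19 in a Myofiber-like one (3, 10, and 6). MuSCs of WT CD were shallower, with a median of 4613 UMIs against 5582.5 in WT HFD and 5912 in KO HFD. Shares of positive cells are therefore also given with every cell thinned to 2000 UMIs. The MuSC shares above are at full depth, although a rule of 2 UMIs per cell itself depends on depth. Of the MuSC-like cluster, the rule took 289 of 416 cells in WT CD, 231 of 293 in WT HFD, and 401 of 488 in KO HFD. The part of depth in the MuSC shares was not tested.

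Other cell types' transcripts in the MuSC sums differed by library. The 5 B cell markers summed to 4995 CPM in WT CD, 6.61 in WT HFD, and 8.94 in KO HFD, with *Igkc*, an immunoglobulin light chain, at 4966 CPM in WT CD. *Cd79b* and *Ms4a1* were at 0 in both HFD sums. The 4 erythroid markers summed to 0.645, 0, and 274.7 CPM, led by the globin *Hbb-bs*. B cell transcripts were thus found in the WT CD sum and globin transcripts in that of KO HFD. The 5 myofiber markers summed to 226, 417, and 283 CPM, led by *Acta1*. The 6 mural markers summed to 286, 567, and 407 CPM, most of it *Acta2* at 157, 455, and 307 CPM. *Notch3*, a mural marker also listed below among Notch receptors read in MuSCs, was at 122, 102, and 82.8 CPM. The 5 cycling markers summed to 61.2, 236, and 209.9 CPM. The 5 endothelial markers summed to 12.2, 65.5, and 54.0 CPM, and 0, 2, and 4 MuSCs lay in the Endothelial-like cluster. The HFD sums were thus higher than that of WT CD for myofiber, cycling, and endothelial markers, and for mural markers mainly through *Acta2*. The 6 FAP (fibro-adipogenic progenitor) markers summed to 416, 492, and 552 CPM, led by *Dpt*, with *Pdgfra* at 0 by the rule. The part of these transcripts in the differences below was not tested.

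**Figure D1:**
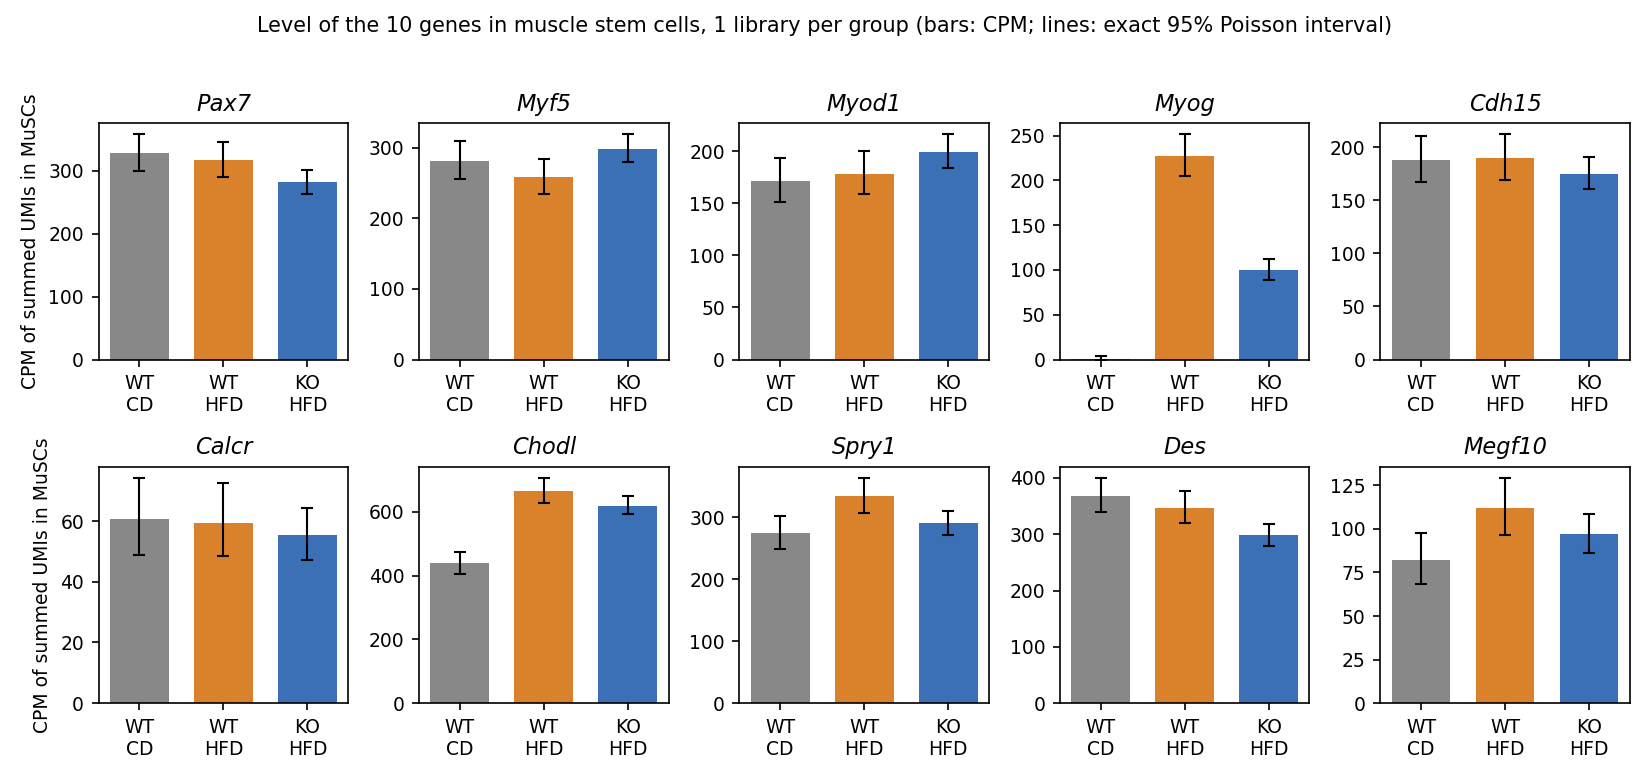
Bars give the level of each of the 10 genes (y axis, CPM of UMIs summed over MuSCs) in each library, with 1 library per group, and lines are exact 95% Poisson intervals. *Myog* goes from 0.645 CPM in WT CD to 227.3 in WT HFD, *Chodl* is lowest in WT CD, and *Pax7*, *Myf5*, *Cdh15*, *Calcr*, and *Myod1* stay within 1.5-fold.

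*Pax7* (chr4:139737062-139833528, minus strand), the paired-box factor of the satellite cell, was at 327.5 CPM (299.6 to 357.3) in WT CD, 316.8 (290.4 to 345.1) in WT HFD, and 281.0 (262.4 to 300.6) in KO HFD. *Myf5* (chr10:107482908-107486134, minus strand), the earliest bHLH factor of the lineage, was at 281.7 CPM (255.9 to 309.4), 258.5 (234.7 to 284.2), and 298.9 (279.7 to 319.0). *Cdh15* (chr8:122847966-122867397, plus strand), the adhesion molecule M-cadherin, was at 188.2 CPM (167.3 to 211.1), 190.0 (169.6 to 212.1), and 175.1 (160.5 to 190.7). None of the 3 genes behind the rule reached 1.5-fold between libraries. A *Pax7* UMI was seen in 76.7%, 80.8%, and 79.6% of MuSCs, a *Myf5* UMI in 71.8%, 71.2%, and 75.5%, and a *Cdh15* UMI in 60.8%, 64.6%, and 70.2%. These shares moved with depth. At 2000 UMIs per cell they were 51.4%, 45.1%, and 40.6% for *Pax7*, 46.5%, 40.5%, and 43.3% for *Myf5*, and 31.2%, 32.7%, and 32.5% for *Cdh15*. WT CD was then highest for *Pax7* in place of lowest. The cells were selected by these 3 genes at full depth before thinning. The order of the libraries in these shares is therefore shaped by the rule and is only a description. Of all UMIs of these genes in the 3 libraries, MuSCs held 91.0% for *Pax7*, 91.2% for *Myf5*, and 87.8% for *Cdh15*, a concentration that the rule itself produces. *Myf6*, the fourth factor of the bHLH family, lies 6718 bases from *Myf5* on chromosome 10. At the edge of the rule, MuSCs with exactly 2 UMIs of the 3 genes had *Chodl* at 439, 539, and 507 CPM, and cells of the MuSC-like cluster with 1 UMI had it at 533, 533, and 574 CPM.

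*Myod1* (chr7:46376474-46379099, plus strand) was at 171.5 CPM (151.5 to 193.4) in WT CD, 178.6 (158.8 to 200.1) in WT HFD, and 199.6 (184.0 to 216.2) in KO HFD. These intervals overlapped in every pair. The diet ratio, WT HFD against WT CD, was 1.04 (0.880 to 1.23), and KO HFD stood to WT HFD at 1.12 (0.971 to 1.29). The share of MuSCs with a *Myod1* UMI was 39.9% (34.3 to 45.6) in WT CD, 49.6% (43.4 to 55.9) in WT HFD, and 50.2% (45.4 to 55.0) in KO HFD. That gap was not seen at equal depth, where the shares were 24.3%, 23.0%, and 23.7%, leaving out 13, 3, and 2 shallower cells. B cell-like cells, which should lack *Myod1*, had a UMI in 0.853% of 703 cells at a median of 8376 UMIs, so the MuSC share was not background. *Pax7* and *Myod1* were seen together in 98, 105, and 174 MuSCs (32.6%, 40.4%, and 39.9%), and *Myod1* without *Pax7* in 22, 24, and 45 (7.31%, 9.23%, and 10.3%). These shares are at full depth, which was lowest in WT CD, and were not compared between libraries.

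**Figure D2:**
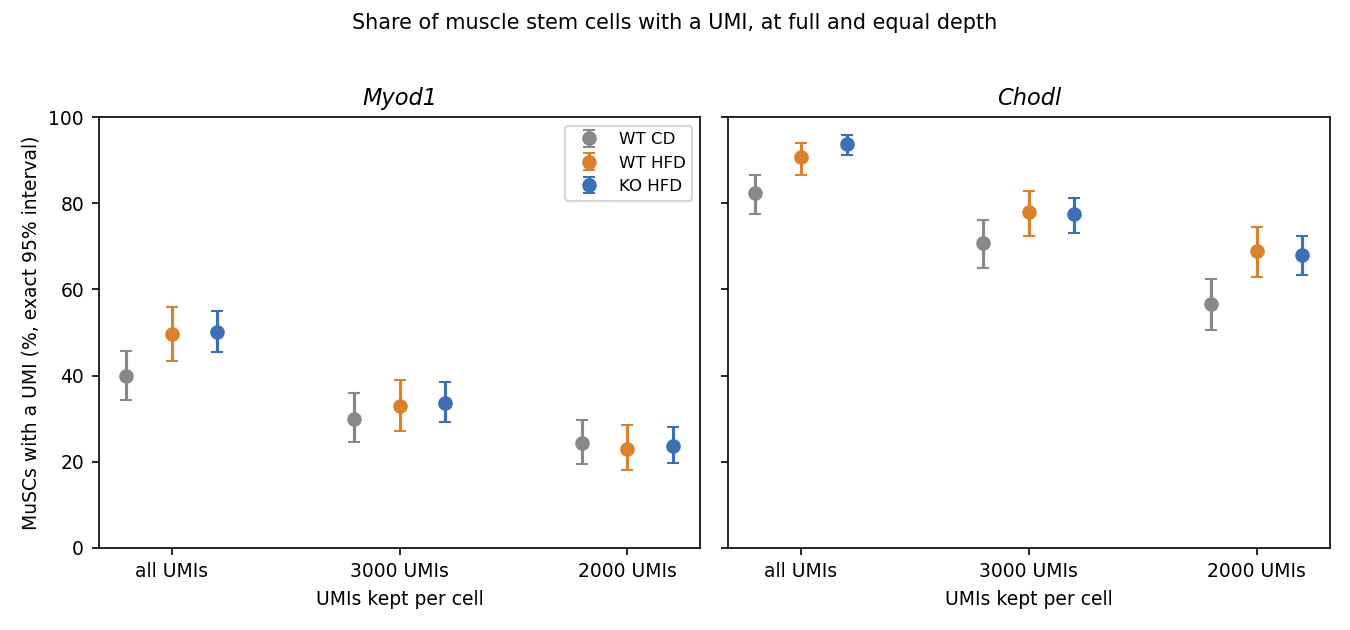
Points give the share of MuSCs with a UMI of *Myod1* (left) or *Chodl* (right) in each library (y axis, percent), with all UMIs and with each cell thinned to 3000 or 2000 UMIs (x axis), and lines are exact 95% intervals. For *Myod1* the gap of 39.9% to 49.6% between WT CD and WT HFD is not seen at 2000 UMIs (24.3% and 23.0%), whereas *Chodl* in WT CD stays lowest (56.6% against 68.9%).

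Within each library, MuSCs were also set apart by whether they had a *Myod1* UMI, a split chosen after the values were seen. In both HFD libraries the *Myod1*-positive cells had less of many of the genes compared, *Spry1* and *Chodl* among them. *Spry1* in positive cells stood to that in negative cells at 1.05 (0.860 to 1.27) in WT CD, 0.675 (0.569 to 0.8002) in WT HFD, and 0.731 (0.639 to 0.836) in KO HFD. *Chodl* stood at 1.08 (0.927 to 1.26), 0.706 (0.626 to 0.796), and 0.726 (0.662 to 0.795). *Calcr* stood at 1.07 (0.697 to 1.64), 0.6997 (0.461 to 1.06), and 0.550 (0.398 to 0.755). In WT CD all 3 ratios had intervals that held 1. *Myf5* stood at 0.844 (0.693 to 1.02), 0.732 (0.603 to 0.889), and 0.717 (0.628 to 0.819). Immediate early genes were also lower in positive cells, in WT CD too for *Egr1* and *Atf3*. *Fos* stood at 0.982 (0.937 to 1.03), 0.820 (0.786 to 0.856), and 0.7998 (0.773 to 0.828). *Egr1* stood at 0.938 (0.898 to 0.980), 0.824 (0.787 to 0.863), and 0.831 (0.803 to 0.859). *Atf3* stood at 0.821 (0.735 to 0.915), 0.597 (0.532 to 0.669), and 0.829 (0.769 to 0.895), so the lower values were not particular to *Spry1* and *Chodl*. Whether the libraries differed in this was not tested. *Hes1* was higher in positive cells of WT HFD, at 0.965 (0.693 to 1.34), 1.68 (1.22 to 2.35), and 0.862 (0.693 to 1.07) by library. *Des* and *Megf10* had intervals that held 1 in every library. The proliferation gene *Mki67* was at 20.002 CPM in positive against 2.35 in negative cells of WT CD, at 96.0 against 0 in WT HFD, and at 89.8 against 1.53 in KO HFD. Positive cells were also deeper, with medians of 4993 against 4522 UMIs, 5829 against 5223, and 6458 against 5373.

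*Myog* (chr1:134289989-134292548, plus strand), the factor of terminal differentiation, showed the widest difference between libraries and rested on the fewest cells. Its level in MuSCs was 0.645 CPM (0.0163 to 3.59) in WT CD, from 1 UMI in 1 cell. It was 227.3 CPM (204.9 to 251.4) in WT HFD, from 378 UMIs in 7 cells, and 100.3 CPM (89.3 to 112.2) in KO HFD, from 303 UMIs in 9 cells. Both HFD libraries were high and WT CD was near 0. The diet ratio was 352.5 (62.9 to 13960) and the ratio of KO HFD to WT HFD was 0.441 (0.378 to 0.515), intervals that treat UMIs of 1 cell as independent and are therefore too narrow. By the whole MuSC-like cluster, which holds the WT CD cell with 21 *Myog* UMIs that the rule leaves out, the log2 diet ratio was 5.16 instead of 8.46. With the rule at 3 UMIs the log2 KO ratio was -0.12 instead of -1.18. The top 5 cells held 99.5% of the *Myog* UMIs in WT HFD MuSCs and 91.4% in KO HFD MuSCs. The share of MuSCs with a *Myog* UMI was 0.332%, 2.69%, and 2.06%. Thinned to 2000 UMIs it was 0 of 288 cells in WT CD, which allows a share of cells with a UMI of up to 1.04% by a floor of 3 counts (exact upper limit 1.27%), 1.56% in WT HFD, and 1.61% in KO HFD. B cell-like cells had no *Myog* UMI.

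Looking at all cells rather than at MuSCs alone, 23 cells carried 5 or more *Myog* UMIs, a threshold set after the counts per cell were seen. They held 97.8% of all *Myog* UMIs. WT CD had 1 such cell (0.0242%, 0.000613 to 0.135), WT HFD had 12 (0.318%, 0.164 to 0.555), and KO HFD had 10 (0.229%, 0.110 to 0.421). The WT CD interval lay below that of WT HFD, and the KO HFD interval overlapped both. All 23 lay in the MuSC-like cluster, but 0, 4, and 6 of them met the MuSC rule, since most had too little *Pax7*, *Myf5*, and *Cdh15*. Without these cells 1, 3, and 6 *Myog* UMIs were left in MuSCs, too few to compare the libraries.

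The 23 cells had a distinct make-up of the other genes. *Pax7* was seen in 2 of them, *Myf5* in 1, *Calcr* in 0, and *Chodl* in 3. *Myod1* was seen in 21 (95 UMIs, 310 CPM), *Des* in 20, *Megf10* in 19 (73 UMIs, 238 CPM), and *Cdh15* in 16. *Cdkn1c*, a cyclin-dependent kinase inhibitor, was seen in all 23, with 3969 UMIs or 12958 CPM. The fusion factors *Mymk* and *Mymx* were seen in 17 and 9, and the sarcomeric actins *Actc1* and *Acta1* in 17 and 20. The proliferation genes *Mki67* and *Top2a* were seen in 2 and 0. *Myf6* was seen in none. These cells were deep, with a median of 12717 UMIs. The single WT CD cell had 21 *Myog* UMIs, 2 of *Cdkn1c*, 17 of *Des*, and none of *Actc1* or *Mymk*.

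**Figure D3:**
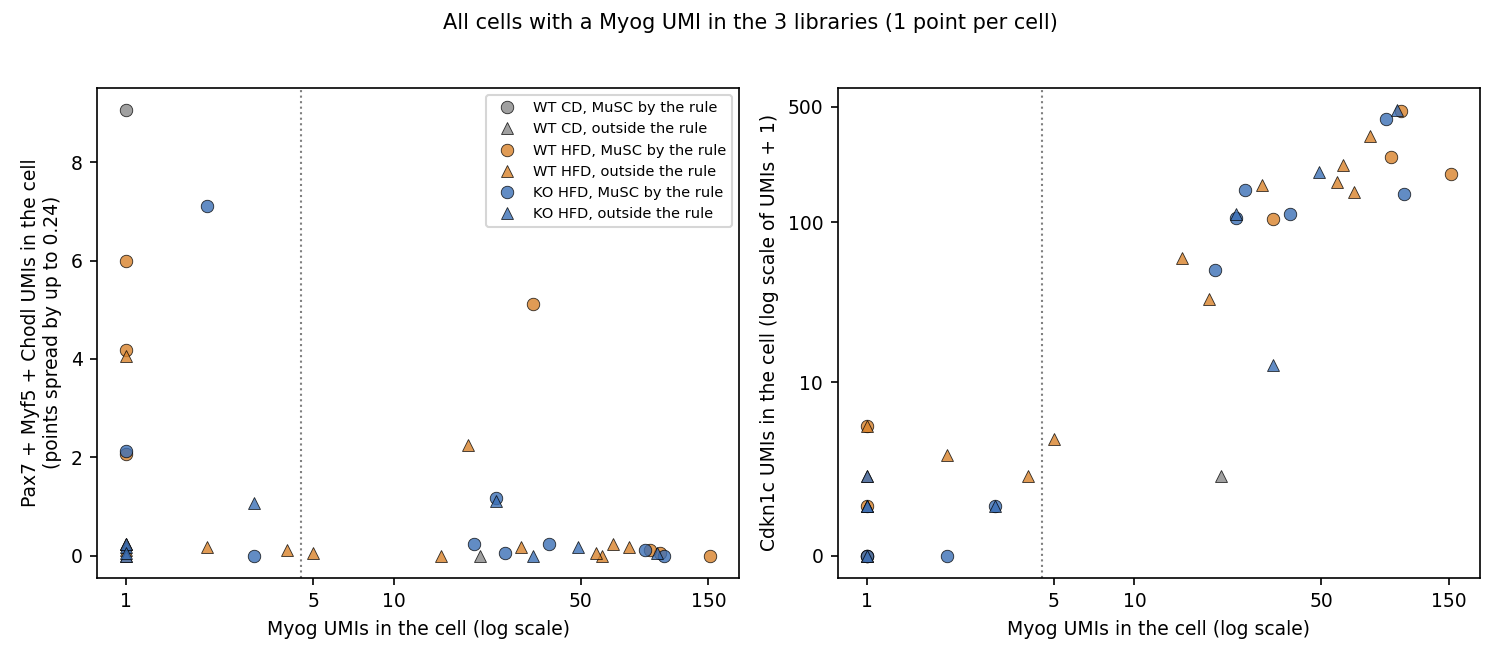
Each point is 1 cell with a *Myog* UMI (x axis, *Myog* UMIs per cell, log scale; colors, library; circles, MuSCs by the rule; triangles, other cells). The left panel gives the summed *Pax7*, *Myf5*, and *Chodl* UMIs and the right panel the *Cdkn1c* UMIs (log scale of UMIs plus 1); right of the dotted line stand the 23 cells with 5 or more *Myog* UMIs, mostly with none of the first 3 genes.

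Among the surface genes, *Calcr* (chr6:3685680-3764714, minus strand), the calcitonin receptor of quiescent satellite cells, differed little between the libraries. It was at 60.6 CPM (49.0 to 74.2) in WT CD, 59.5 (48.4 to 72.5) in WT HFD, and 55.3 (47.2 to 64.3) in KO HFD. The diet ratio was 0.982 (0.733 to 1.32) and the KO ratio 0.929 (0.720 to 1.20), so a 1.5-fold difference lay outside both intervals. A *Calcr* UMI was seen in 25.6%, 29.2%, and 28.2% of MuSCs, and in 12.8%, 10.9%, and 10.1% at equal depth.

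*Chodl* (chr16:78930948-78951733, plus strand), which encodes the C-type lectin-like membrane protein chondrolectin, was higher in both HFD libraries. It was at 438.4 CPM (406.1 to 472.6) in WT CD, 665.6 (626.9 to 706.0) in WT HFD, and 620.0 (592.2 to 648.7) in KO HFD. The WT CD interval stood apart from both others, while the HFD libraries overlapped. The diet ratio was 1.52 (1.38 to 1.67) and the KO ratio 0.931 (0.864 to 1.004). Unlike *Myog*, *Chodl* was counted in most MuSCs: a UMI was seen in 82.4%, 90.8%, and 93.8% of MuSCs, and at equal depth in 56.6% (50.7 to 62.4), 68.9% (62.8 to 74.5), and 68.0% (63.4 to 72.3). MuSCs with at least 5 *Chodl* UMIs numbered 42 of 301, 105 of 260, and 167 of 436. The diet ratio was 1.30 when the sums were scaled by edgeR's TMM factors, below the 1.5-fold limit, and it also missed that limit when 1 UMI of the rule's genes sufficed and in the whole MuSC-like cluster (log2 ratio 0.56). In the 276 cells of that cluster outside the rule *Chodl* was at 456 CPM (399 to 519), 481 (413 to 558), and 499 (441 to 562), with all intervals overlapping.

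*Megf10*, on chromosome 18, encodes a membrane protein with EGF-like repeats that acts in satellite cell proliferation. It was at 81.9 CPM (68.3 to 97.4) in WT CD, 111.8 (96.3 to 129.1) in WT HFD, and 97.0 (86.2 to 108.7) in KO HFD. WT CD was lowest, with an interval that overlapped both others. The diet ratio of 1.37 (1.08 to 1.73) and the KO ratio of 0.867 (0.719 to 1.05) did not reach 1.5-fold, although the diet ratio did in the whole MuSC-like cluster (log2 ratio 0.63) and among the MuSCs in it (0.61). A UMI was seen in 31.6%, 43.1%, and 41.7% of MuSCs, and in 14.6%, 15.2%, and 19.4% at equal depth.

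*Spry1* (chr3:37639947-37644598, plus strand), an inhibitor of receptor tyrosine kinase signaling linked to the return to quiescence, was at 274.6 CPM (249.2 to 302.0) in WT CD, 334.3 (307.1 to 363.3) in WT HFD, and 290.6 (271.7 to 310.5) in KO HFD. WT HFD was highest. A UMI was seen in 65.1%, 77.7%, and 76.8% of MuSCs, and in 39.6%, 45.9%, and 44.9% at equal depth. The diet ratio was 1.22 (1.07 to 1.38) under CPM and 1.04 under TMM scaling, and the KO ratio was 0.869 (0.781 to 0.969). *Des* (chr1:75360329-75368579, plus strand), the intermediate filament desmin, was at 368.1 CPM (338.5 to 399.6), 346.9 (319.2 to 376.4), and 298.2 (279.1 to 318.4). It was lowest in KO HFD. A UMI was seen in 75.4%, 71.2%, and 77.1% of MuSCs, and at equal depth in 52.8%, 41.2%, and 40.8%, with WT CD the highest. The diet ratio was 0.942 (0.838 to 1.06) and the KO ratio 0.860 (0.774 to 0.956).

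The 10 genes all had at least 50 CPM in 1 library of each comparison, *Myog* only through the HFD libraries. In WT HFD against WT CD, 2 of the 10 were higher by 1.5-fold or more, *Myog* and *Chodl*, and none was lower. Among all 2512 genes at that level, 13.1% were higher and 2.91% lower, or 5.11% and 7.68% under TMM scaling. The median log2 ratio of all genes was 0.19 under CPM and -0.066 under TMM. Relative to the median of 0.19, *Chodl* at 0.60, *Megf10* at 0.45, and *Spry1* at 0.28 stood above it. *Calcr* at -0.03, *Des* at -0.09, and *Myod1* at 0.06 stood below it. The counting intervals of *Megf10*, *Spry1*, *Calcr*, and *Myod1* held that median, and only those of *Chodl* and *Des* did not. *Pax7* at -0.05, *Myf5* at -0.12, and *Cdh15* at 0.01 selected the cells, so they are given as a description and not set against the median. Under TMM scaling *Myod1* (-0.17) and *Cdh15* (-0.21) changed sign, and the other 8 did not. In KO HFD against WT HFD, a comparison that shares the WT HFD library with the first, 0 of the 10 were higher and 1, *Myog*, was lower. Among all 2539 genes, 1.58% were higher and 1.5% lower, or 2.41% and 0.653% under TMM, and the median log2 ratio was -0.030. Member counts of 1 or 2 rest on single genes and are not set against these shares.

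**Figure D4:**
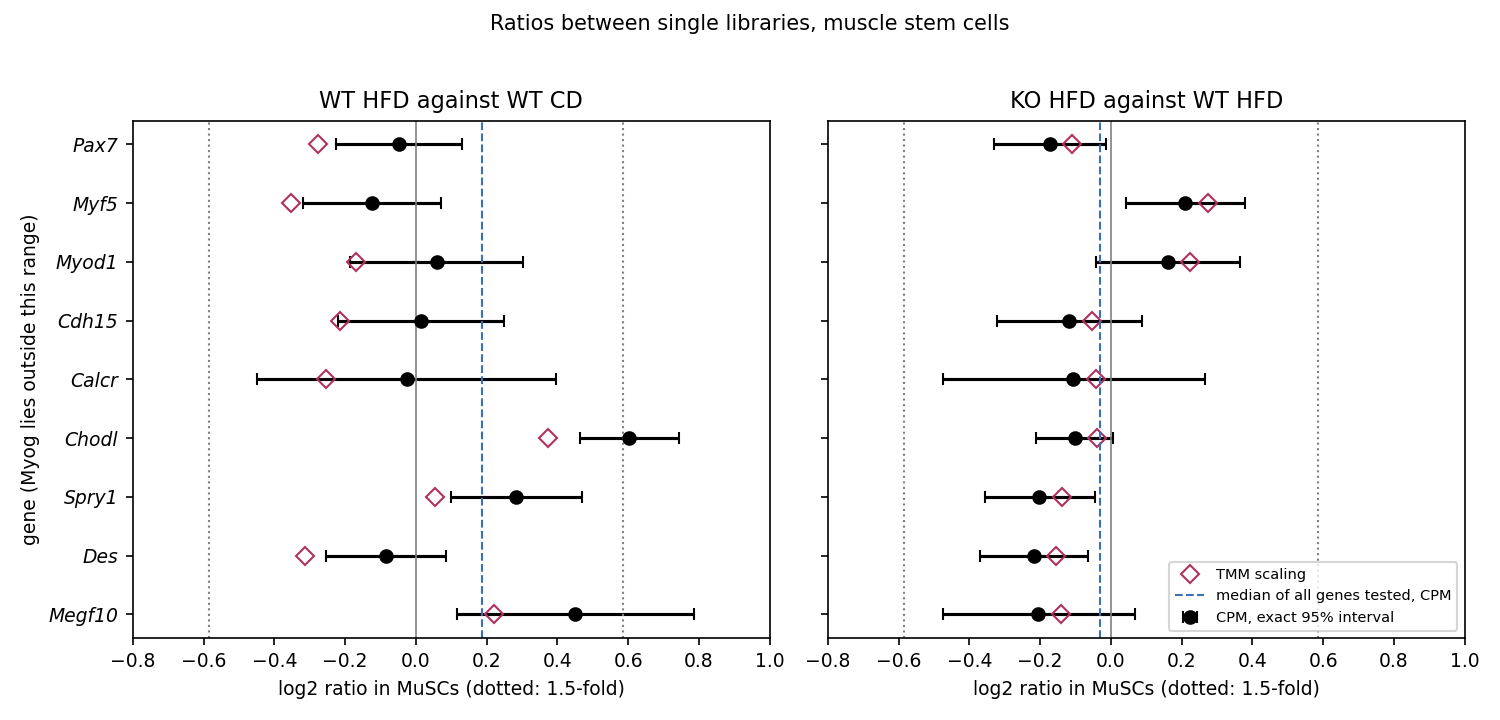
Black points give the log2 ratio in MuSCs of 9 of the genes (x axis, CPM, exact 95% interval) for WT HFD against WT CD (left) and KO HFD against WT HFD (right), and diamonds give the ratio under TMM scaling. *Chodl* alone passes the dotted 1.5-fold line, at 0.60 on the left, and falls inside it under TMM (0.37); the dashed line is the median of all genes tested, and *Myog* lies outside the plotted range.

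Outside MuSCs, cells were grouped by clusters made without the 10 genes, and cells meeting the rule were taken out. *Pax7*, a gene of the rule, was at 302 CPM in MuSCs over the 3 libraries. It was at 70.5 CPM (50.8 to 95.3) in a Tenocyte-like cluster and 51.0 (39.9 to 64.2) in the remaining 276 cells of the MuSC-like cluster. The rule took high-*Pax7* cells out of those 276, whereas most such Tenocyte-like cells stayed through a *Ptprc* or *Pdgfra* UMI. The order of these levels is therefore shaped by the rule and is only a description. *Myod1* was at 205 CPM (181.6 to 229.5) in those 276 cells and 187 CPM (176.4 to 198.0) in MuSCs, but the libraries went different ways. The 276 cells had 236 CPM (195.6 to 282.5) in WT CD, above its MuSCs, 212 (167 to 265) in WT HFD, and 171 (138 to 209) in KO HFD, the last 2 with intervals that overlapped those of MuSCs. *Myog* was higher there (396 CPM, 364 to 431) than in MuSCs (109 CPM, 101.3 to 117.9), with 13 of the 23 *Myog*-rich cells among the 276. MuSCs held 73.9% of all *Myod1* UMIs, 54.5% of those of *Myog*, 78.8% of *Calcr*, 76.5% of *Chodl*, and 72.3% of *Megf10*. In FAP-like cells each of *Pax7*, *Myf5*, *Myod1*, *Myog*, *Cdh15*, *Calcr*, *Chodl*, and *Megf10* was below 1 CPM. A further cluster with FAP markers, led by *Sfrp2*, *Avpr1a*, and *Col8a2*, had *Chodl* at 10.2 CPM (8.25 to 12.5) and *Megf10* at 1.10 CPM, and another, led by *Dio2*, *Pthlh*, and *Col8a1*, had *Chodl* at 2.66 CPM.

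*Spry1* and *Des* were the least confined. Of all *Spry1* UMIs, 25.5% lay in MuSCs and 39.1% in the far more numerous FAP-like cells. The clusters with FAP markers led by *Dio2* and by *Sfrp2* held a further 14.9% and 7.27%. By level *Spry1* ran from 298 CPM in MuSCs to 236 in the rest of the MuSC-like cluster, 122 in Myofiber-like, 119 in Tenocyte-like, and 116 in Mural-like cells, the last 3 with overlapping intervals, then 87.9 (82.8 to 93.3) in the cluster led by *Dio2*, *Pthlh*, and *Col8a1* and 75.2 (72.5 to 78.0) in FAP-like cells. *Des* was highest in Myofiber-like cells (1455 CPM, 1192 to 1758, 18 cells). Mural-like cells (385 CPM, 327 to 451), the rest of the MuSC-like cluster (355 CPM, 325 to 388), and MuSCs (329 CPM, 315 to 343) followed with overlapping intervals. Desmin is known as a filament protein of smooth and striated muscle alike. Behind the MuSC-like cluster, *Megf10* was at 33.4 CPM (18.3 to 56.1) in Schwann-like, 31.9 (19.2 to 49.8) in Tenocyte-like, and 27.2 (3.29 to 98.2) in Myofiber-like cells, with overlapping intervals.

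The Tenocyte-like cluster stood apart by carrying 9 of the 10 genes, all but *Myog*, at 20 CPM or more besides its tendon gene *Tnmd*. It had 57 cells (20, 20, and 17 by library), 3 of them MuSCs by the rule, with a median of 11686 UMIs. *Chodl* was seen in 43 of the 57 and *Tnmd* in 29, both in 18. A doublet caller marked 22 of the 57, against 1.26%, 1.09%, and 1.33% of all cells in the libraries. Of the 25 with 2 or more UMIs of the rule's genes, 22 also had a *Ptprc* or *Pdgfra* UMI. The part of doublets in these levels was not tested.

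**Figure D5:**
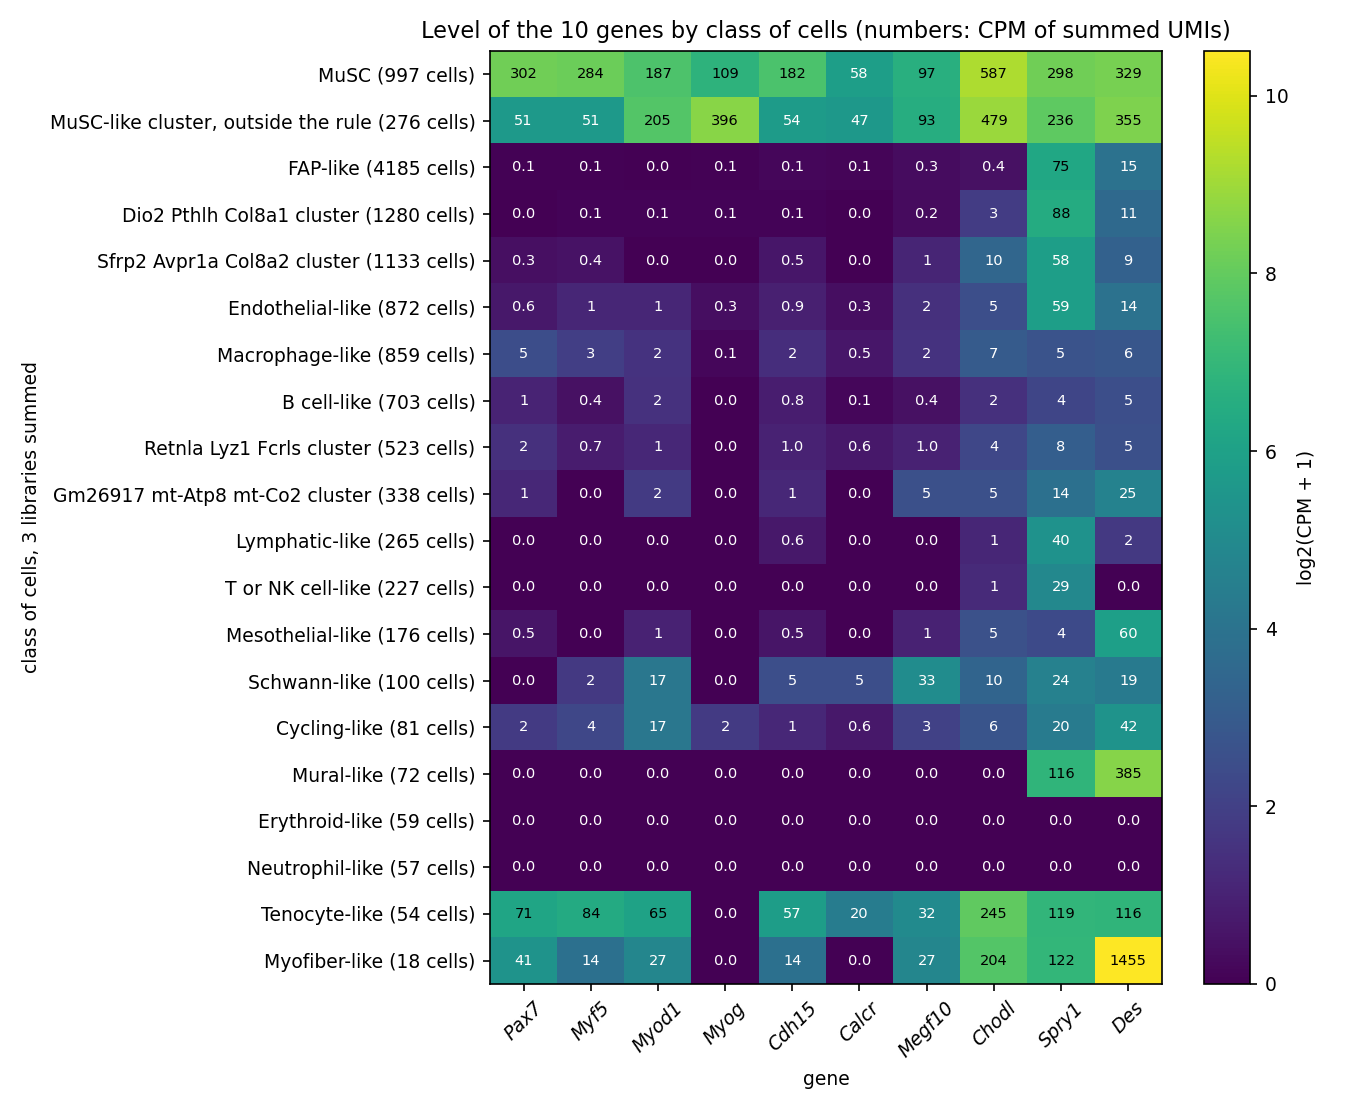
Color gives log2(CPM + 1) and the printed number the CPM of each of the 10 genes (x axis) in each class of cells with the 3 libraries summed (y axis, cell numbers in parentheses). The top rows, MuSCs and the rest of the MuSC-like cluster, hold the highest level of each gene but *Des*, which peaks at 1455 CPM in Myofiber-like cells, and *Spry1* is spread over many classes. For *Pax7*, *Myf5*, and *Cdh15* the rule shapes this order.

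Lists of related genes were read in MuSCs beside the same shares of all genes. For diet these were 13.1% higher and 2.91% lower, and for KO HFD against WT HFD 1.58% and 1.5%. A count of 1 member is no result about its list. Of 6 bHLH partners and inhibitors at 50 CPM, 1 was higher in WT HFD than in WT CD, *Msc* (62.5, 128.7, and 135.7 CPM, by library), a bHLH repressor also called MyoR. Another was lower, *Id1* (588, 366, and 386 CPM), an inhibitor that binds E-proteins. The most abundant of them were *Id3* (2013, 1795, and 1643 CPM), then *Id1*, then the E-protein gene *Tcf4* (359, 362, and 363 CPM). The list's median log2 diet ratio was -0.077. None of the 6 reached 1.5-fold between KO HFD and WT HFD.

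Of 5 Notch receptors and targets, a pathway that holds satellite cells quiescent, 1 was higher in WT HFD, *Heyl* (65.1, 117.2, and 91.7 CPM), where 13.1% of all genes were. *Notch1* joined it with doublets or the *Myog*-rich cells left out, and *Notch1* and *Hes6* among the MuSCs of the MuSC-like cluster (3 of 6). The list's median log2 diet ratio was 0.46, against 0.19 over all genes. *Notch3* was at 122, 102, and 82.8 CPM and *Hes1* at 100.6, 109, and 113. Of 13 surface and niche receptors, 1 was higher, *Itga7* (40.6, 61.9, and 52.6 CPM), the laminin-binding integrin, where 13.1% of all genes were. The list's median was 0.18. *Itga7* reached 50 CPM only in the HFD libraries, and 0 of the 13 were higher under TMM scaling, with the rule at 1 UMI, in the whole MuSC-like cluster, or with cells kept at 500 genes or more and 10% mitochondrial UMIs or less. *Cxcr4* was lower in WT HFD in the MuSC-like cluster and among the MuSCs in it. *Sdc4* and *Dag1*, matrix receptors, led this list with 1129 and 828 CPM in WT CD. *Pax3*, the only upstream factor at 50 CPM, was at 67.7, 94.99, and 78.8 CPM and did not reach 1.5-fold, although it did with the rule at 3 UMIs. None of these 3 lists had a member past 1.5-fold in KO HFD among MuSCs, while *Hes6* was lower in the MuSC-like cluster, among the MuSCs in it, and with each cell weighted alike. *Spry2*, 1 of 2 FGF and ERK feedback genes tested there, was higher in KO HFD (44.5, 44.5, and 67.9 CPM), at 1.53-fold, and reached 50 CPM only there. It was short of 1.5-fold without the *Myog*-rich cells (1.45), in the MuSC-like cluster, and with each cell weighted alike.

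Of 5 myogenic differentiation genes, 4 were higher in WT HFD than in WT CD. *Cdkn1c* was at 30.3, 645, and 355 CPM, and *Actc1* at 0, 88.4, and 23.2 CPM, at least 45.7-fold higher in WT HFD against a floor of 3 UMIs per library. *Tnnt1*, a slow troponin, was at 44.5, 76.4, and 69.8 CPM and *Chrna1*, an acetylcholine receptor subunit, at 47.7, 81.2, and 70.5. *Cdkn1a* was at 369, 546, and 540 CPM, short of the limit. *Cdkn1c* and *Actc1* were also lower in KO HFD than in WT HFD, at 0.551 and 0.262. All 4 reached 50 CPM only in the HFD libraries, so neither their count nor the list's median is support for a difference. With the cells of 5 or more *Myog* UMIs left out, *Actc1* had no UMI in WT HFD MuSCs and *Cdkn1c* was at 30.3, 33.8, and 26.6 CPM, below the level tested. *Tnnt1* and *Chrna1*, each seen in over 50 MuSCs of every library, then stood at 1.45 and 1.44 for diet instead of 1.72 and 1.70, short of 1.5-fold. TMM scaling left *Actc1* and *Cdkn1c* as the only members past 1.5-fold. The list's median log2 diet ratio was 0.77, or 0.78 with *Actc1* at its bound.

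All 7 mature myofiber genes at 50 CPM were higher in WT HFD, by up to 2.51-fold for the oxygen store *Mb* and 2.38-fold for the creatine kinase *Ckm*. Of all genes, 13.1% were higher, or 5.11% under TMM scaling. With the rule at 3 UMIs the diet count was 4 of 5, *Ckm*, *Tnnt3*, *Tnnc2*, and *Mb*. *Acta1* was at 112, 209, and 139 CPM. The list's median log2 diet ratio was 1.02, and 3 of the 7, *Mylpf*, *Ckm*, and *Acta1*, were lower in KO HFD. That count was 0 of 5 with the rule at 3 UMIs, 0 of 3 in the MuSC-like cluster, and 1 of 6, *Ckm*, under TMM scaling. Only *Acta1* and *Tnnc2* reached 50 CPM in WT CD, so the other 5 entered the list through the HFD libraries. Neither their count nor the list's median is support for a difference. Of 4 cell cycle genes 2 were higher in WT HFD, *Top2a* (10.3, 86.6, and 60.6 CPM, in 1, 13, and 14 cells) and *Mki67* (10.3, 54.1, and 51.6 CPM, in 4, 15, and 16 cells), and the others, *Ccnd1* and *Pcna*, were within 1.5-fold. *Top2a* and *Mki67* also entered through WT HFD, where they were high, and only *Top2a* was past 1.5-fold with the rule at 1 or at 3 UMIs. Among the MuSCs of the MuSC-like cluster alone, 0 of the 2 cell cycle genes left at 50 CPM were higher. There 3 of 3 myofiber genes were, *Acta1*, *Ckm*, and *Tnnc2*. *Ckm* was at 38.7 CPM in the sum of all WT CD MuSCs, below the level tested, so the 2 counts are not set against each other. None of 9 immediate early genes, which tissue digestion is known to induce, passed 1.5-fold in either comparison, with a median of -0.26 for diet. *Ier3* alone was lower in WT HFD under TMM scaling, in the MuSC-like cluster, and among the MuSCs in it. The list's genes were abundant throughout, with *Egr1* at 5355, 4472, and 4583 CPM and *Fos* at 4458, 5202, and 4274.

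The largest differences in MuSCs lay mostly outside the myogenic genes. Beside *Actc1* and *Myog*, the largest excess in WT HFD over WT CD was of the fatty acid binding protein gene *Fabp4* (4.51, 143.7, and 145.0 CPM, seen in 5, 14, and 26 cells), at 31.8-fold (15.2 to 80.1). *Fabp4* is also a leading gene of the Endothelial-like cluster, whose markers were higher in the same sums, and their part in its level was not tested. The largest deficits were of the immunoglobulin genes *Ighm* (1826, 0, and 3 UMIs), *Jchain* (890, 0, and 3), and *Igkv19-93* (89, 0, and 0, in 1 cell), at least 653-fold, 318-fold, and 31.8-fold lower against the same floor. These genes belong to B cells and plasma cells. In KO HFD the largest excesses over WT HFD were of the globin genes *Hbb-bs* (570 UMIs in 8 cells), *Hba-a1* (258 in 2), and *Hba-a2* (164 in 2), each with no UMI in WT HFD and so at least 105-fold, 47.3-fold, and 30.1-fold higher. Reads of the 2 *Hba* copies may be split between them. The largest deficits were of *Ecrg4* (12.2, 84.2, and 5.96 CPM), *Actc1*, and *Eif3j1* (193, 164, and 54.3 CPM). *Eif3j1* has a near-identical copy, *Eif3j2* (4.51, 5.41, and 157 CPM, named after its value was seen), so its level is uncertain.

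Likeness of pattern was described by Pearson's r of log2(CPM + 1) over 50 sums of a class in a library, among 7509 genes; the sums share libraries and depth, and no test was made. *Pax7* was most like *Edn3* (0.95), *Myf5* (0.95), and *Chrdl2* (0.93). *Myf5* was most like *Pax7*, *Pax3*, and *Edn3*, and *Cdh15* was close to *Calcr* (0.95) and *Pax7*. The rule gathered cells with UMIs of *Pax7*, *Myf5*, and *Cdh15* into the MuSC sums and took them out of the other classes. Likeness among these genes is therefore partly produced by the rule and is only a description. *Myod1* was close to *Calcr* (0.94) and *Asb5* (0.92). *Myog* stood with the fusion factor *Mymk* (0.93), *Actc1* (0.90), and *Popdc3* (0.88). *Chodl* was most like *Chrdl2* (0.92), *Fgfr4* (0.91), and *Chrna1* (0.91). The looser fits were those of *Spry1* with *Zhx3* (0.90), *Pxdc1*, and *Myc*, of *Des* with *Vcam1* (0.83), *Smarcd3*, and *Clmn*, and of *Megf10* with *Pde1c* (0.90), *Drp2*, and *Tmem229a*.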

How the data were processed

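The authors digested costal diaphragms with collagenase, sorted DAPI-negative cells, all on 1 day, and sequenced 10x Genomics 3′ v3.1 libraries on a NovaSeq. The deposited values are raw UMI counts per gene and barcode, made with Cell Ranger (6.1.1 in the submitters' processing notes, 6.1.0 in the file header) on GRCm38 (mm10). The 10 genes, the MuSC rule, and the gene lists were chosen with earlier results of these data known.

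Cells were used as deposited. Clustering left out the 10 genes (scanpy 1.11.5: 2000 variable genes, 30 components, 15 neighbors, Leiden resolution 1; Python 3.11.15). A type fitted a cluster when at least 3 of its markers were each detected in 10% or more of the cells. Its markers also needed a mean log2 excess of at least 1 over the other clusters. Among the types that fitted, the one with the highest excess gave the name X-like. The limit of 3 markers was set while the clusters were examined. Clusters that no type fitted, or whose 10 leading genes held more markers of another type, were called by their leading genes. Scrublet marked 52, 41, and 58 doublets, which were kept. UMIs were summed per class and library and scaled to 1000000. No count test was run, because each group was 1 library; edgeR 4.0.16 supplied TMM factors only. Text names the 10 genes, *Thbs1*, the up to 3 most abundant and up to 4 most different genes of each list, the 3 largest differences each way, and the 3 genes most alike each member; a few genes that these rules name are not reported here. Promoter sequences (RefSeq, GRCm38.p6) and gene positions (GENCODE vM21, GRCm38) were read from reference tables; the promoters were not checked against a genome sequence. Scripts were tested on simulated counts.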

Additional observations from a re-analysis of the deposited data

How the results depend on the processing

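MuSCs were 9.29%, 8.03%, and 11.5% of cells (WT CD, WT HFD, KO HFD) when 1 UMI of the rule's genes sufficed, 5.42%, 5.64%, and 7.76% when 3 were asked for, and 10.1%, 7.76%, and 11.2% by the MuSC-like cluster. Of the 10 genes, those past 1.5-fold in WT HFD against WT CD numbered 1 instead of 2 with the 1-UMI rule (*Myog*), with TMM scaling (*Myog*), and without the cells of 5 or more *Myog* UMIs (*Chodl*). In KO HFD against WT HFD the count was 0 instead of 1 with the 3-UMI rule and without those cells. Leaving those cells out turned the *Myog* log2 ratio there from -1.18 to 0.12, a value that rests on 3 and 6 UMIs in cells chosen for low *Myog*, and made the *Myog*-positive share of KO HFD MuSCs 0.698%. That share was 6.14% for WT HFD in the MuSC-like cluster, and 0 for WT CD at 2000 UMIs per cell. *Myod1*-positive shares were 24.3%, 23.0%, and 23.7% at 2000 UMIs and 29.9%, 32.9%, and 33.7% at 3000. Among the alternatives to the log2 ratios of the 10 genes and the counts of list genes, 452 values kept within the limits, 51 moved, and 1 reversed, the *Myog* ratio above. Cells of 5 or more *Myog* UMIs, MuSCs of the MuSC-like cluster alone, and the list counts were settings chosen after the data were seen. No paired analysis was possible because each group has 1 library. The 3 libraries hold 1, 12, and 10 cells with 5 or more *Myog* UMIs, and no replicate gives the spread between mice.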
